A study of Mus musculus with 15 samples.

Results

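The cytosolic ribosomal protein genes were taken as every gene ID that consists of Rpl or Rps and a number, with a closing a, x or y allowed, together with Rplp0, Rplp1, Rplp2 and Rpsa, where the ID stood in both FPKM tables (fragments per kilobase of transcript, scaled to the mapped fragments of the library) with a mean of at least 5 FPKM in each. The rule gave 76 genes, 46 of the large subunit (Rpl and Rplp names) and 30 of the small subunit (Rps names and Rpsa), among 54343 gene entries of the MC38 table and 55303 of the B16-F10 table. All 76 IDs that match the pattern in both tables passed the minimum. The closest to it was Rpl5, with 38.3 FPKM in MC38 and 31.5 FPKM in B16-F10, and no matching ID lay below it. Rps3a1, Fau and Rack1 encode ribosomal proteins under names that the pattern does not match, and they are described separately.

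RNA was measured by polyA-selected, strand-specific RNA-seq in cultured mouse tumour lines with altered Ssbp4, a gene of the single-stranded DNA-binding protein family whose products bind LDB adaptor proteins. MC38, a colon adenocarcinoma line whose tissue label nevertheless reads melanoma, gave 4 wild-type libraries and 3 libraries of cells transduced with a retroviral vector (pMSCV-IRES-EGFP) carrying Ssbp4, called overexpression (OE) here; an empty-vector group was not analysed here. B16-F10, a melanoma line, gave 4 libraries labelled wild type, from cells that received Cas9 and a control guide to an intergenic region of chromosome 2, and 4 knockout (KO) libraries from cells that received Cas9 and a pool of guides to Ssbp4. Nothing in the labels states that the replicates were grown separately, and the p-values below may then reflect technical spread alone.

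Ssbp4 itself was at 13.2, 17.3, 17.0 and 17.6 FPKM in the MC38 wild-type libraries and at 581, 559 and 462 FPKM in the OE libraries, a 32.8-fold difference of means (two-sided exact permutation test over libraries, p = 0.0571, the smallest that 4 against 3 allows). In B16-F10 it was at 32.7, 37.4, 32.4 and 35.4 FPKM in wild type and at 23.1, 22.0, 24.3 and 19.002 FPKM in KO, so that 64.1% of the wild-type mean remained (exact p = 0.0286, the smallest that 4 against 4 allows). RNA level says nothing of the reading frame after guide-directed cutting. Depth, read from the spacing of the lowest FPKM values, came to 32.3 to 38.2 M fragments (M for mega) per MC38 library and to between 32.3 and 48.7 M per B16-F10 library, which limits only the least abundant entries here. All 7 melanocyte markers were expressed in B16-F10 (summed level of 10982 to 14075 FPKM in wild type), whereas in MC38 the epithelial and colon markers Cdx2, Krt20 and Vil1 were at or near 0 and the 7 of the list together reached 6.64 to 8.39 FPKM in wild type (2 of 7 at 1 FPKM or more) and 8.96 to 10.7 FPKM in OE (1 of 7). Krt18 was at 3.23 FPKM in MC38 wild type and 0.061 FPKM in OE, and Krt8 at 3.22 and 9.45 FPKM. The melanocyte sum was 13645 to 14154 FPKM in B16-F10 KO. The leukocyte markers Ptprc and Cd3e were at or near 0 in both lines, and 1 of the 6 listed reached 1 FPKM in each group. In MC38 this was Cd68, at 2.49 FPKM in wild type and 3.52 FPKM in OE (log2 fold change 0.38, adjusted p = 0.0163 by limma). In MC38 the summed level of 5 fibroblast markers was 81.6 to 87.1 FPKM in wild type and 383 to 391 FPKM in OE, carried by Dcn and Pdgfra, with Thy1 under 0.1 FPKM in both groups; the part of this difference between the cultures in the results below was not tested. The B16-F10 wild-type libraries fell into pairs that stood apart. Over the genes that are not ribosomal protein genes, the root mean square distance on the log2 scale was 0.136 between wild-type replicates 1 and 2 and 0.147 between replicates 3 and 4, but 0.289 to 0.30 between the pairs, larger than the 0.193 to 0.284 between wild-type and KO libraries. The B16-F10 results are therefore also given against each wild-type pair.

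The cytosolic ribosome is built of a large subunit, which joins amino acids into protein, and a small subunit, which reads the mRNA, and cells make the proteins of both in matched amounts to assemble them on ribosomal RNA. The mRNAs of these proteins are among the most abundant in growing cells. Most of them begin with a terminal oligopyrimidine (TOP) tract, a C at the transcription start followed by further C and T, through which LARP1 and the kinase complex mTORC1 adjust their translation and stability. In tumour cells their output follows growth signalling and Myc.

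The start of each gene was read from RefSeq promoters (assembly GRCm38.p6; the authors' build is GRCm39, so the coordinates hold for GRCm38.p6 only), in which 56 of the 76 genes had an entry. A tract was defined as the longest run of C and T that begins with a C within 10 bases of the annotated start. Where a gene had several promoter entries, the entry with the longest run was used. A run so defined need not begin at the start: that of Rpl10a ends before it, and that of Rpl36a begins 9 bases after it. Runs of this kind were counted with the rest. The windows below run 15 bases to either side of that start, on the gene's strand and 5′ to 3′, with the tract in capitals. They show the genes that the results turn on: the lowest in MC38 OE (Rpl35a, Rpl13a, Rpl35 and Rps26), the highest there (Rpl37a and Rpl36a), the 3 called in B16-F10 KO (Rps23, Rpl27a and Rpl10a), and Rpl15, the only 1 of the 76 above 0 in B16-F10.
Rpl35a, chr16:33056467-33056496, plus strand: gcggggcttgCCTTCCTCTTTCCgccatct
Rpl13a, chr7:45128731-45128760, minus strand: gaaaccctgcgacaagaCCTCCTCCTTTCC
Rpl35, chr2:39005117-39005146, minus strand: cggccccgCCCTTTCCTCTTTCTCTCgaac
Rps26, chr10:128626492-128626521, minus strand: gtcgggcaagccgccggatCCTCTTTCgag
Rpl37a, chr1:72711245-72711274, plus strand: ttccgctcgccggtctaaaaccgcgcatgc
Rpl36a, chrX:134585639-134585668, plus strand: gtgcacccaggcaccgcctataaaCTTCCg
Rps23, chr13:90923107-90923136, plus strand: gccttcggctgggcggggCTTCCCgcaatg
Rpl27a, chr7:109519180-109519209, plus strand: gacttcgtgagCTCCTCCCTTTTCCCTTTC
Rpl10a, chr17:28328456-28328485, plus strand: gtggcgCCCCCCCagcggccgcaaactgca
Rpl15, chr14:18270972-18271001, minus strand: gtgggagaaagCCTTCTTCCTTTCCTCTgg
The tracts of Rpl13a and Rpl27a run past the window, to 14 and 20 bases. Rpl37a had no such run of 5 or more bases. A run that is not found in this window says nothing of the start that these cells use.

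A tract of at least 5 bases, as defined above, was found in 34 of the 56 genes (60.7%) and in 34.3% of the 26969 other genes with a promoter entry. A tract of at least 8 bases was found in 23 (41.1%) against 9.37% of the others, in 14 of 34 large and 9 of 22 small subunit genes. The motif CCGGAAGT, the sequence bound by ETS-family factors, was searched on both strands of the 300-base promoter and was present in 11 (19.6%) against 4.28% of the others. These are matches of letters, not measured binding.

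The levels of the 76 genes spanned a wide range per unit of transcript length. The highest in both lines was Rplp1, which encodes an acidic protein of the ribosomal stalk, with a mean of 2345 FPKM in MC38 and 2828 FPKM in B16-F10. The lowest were Rpl12, a protein of the stalk base, at 33.3 FPKM in MC38 and Rpl5, which binds 5S rRNA, at 31.5 FPKM in B16-F10. The median was 840 FPKM in MC38 and 739 FPKM in B16-F10, and 32 genes in MC38 but 18 in B16-F10 reached 1000 FPKM. By subunit, the median was 786 FPKM for large and 909 FPKM for small subunit genes in MC38, and 694 and 815 FPKM in B16-F10. The order of the genes was similar in the lines (Spearman's rho of the wild-type means 0.849 across the 76 genes, which share libraries and are not independent). The tables were normalized separately, so levels are compared within a line.

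In MC38 the ribosomal protein genes together took a smaller share of all FPKM in OE than in wild type. They held 15.49%, 16.13%, 15.001% and 15.64% of the summed FPKM in the wild-type libraries and 14.25%, 13.83% and 14.70% in the OE libraries. Every OE library lay below every wild-type library. In B16-F10 the share was 12.98%, 13.04%, 11.72% and 12.53% in wild type and 10.92%, 11.58%, 11.48% and 12.12% in KO. There the groups overlapped, since KO replicate 4 lay above wild-type replicate 3. The summed FPKM of the 76 genes fell by 10.1% in MC38 OE, from 78714 ± 2523 (SD, n = 4) to 70792 ± 2547 (SD, n = 3), and differed by -9.41% in B16-F10 KO, from 62421 ± 3490 (SD, n = 4) to 56546 ± 2729 (SD, n = 4). FPKM is a share of the RNA sequenced: in bulk libraries fewer cells of a kind and less RNA per cell cannot be told apart, and neither can less ribosomal protein mRNA and more of other mRNA.

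**Figure D1:**
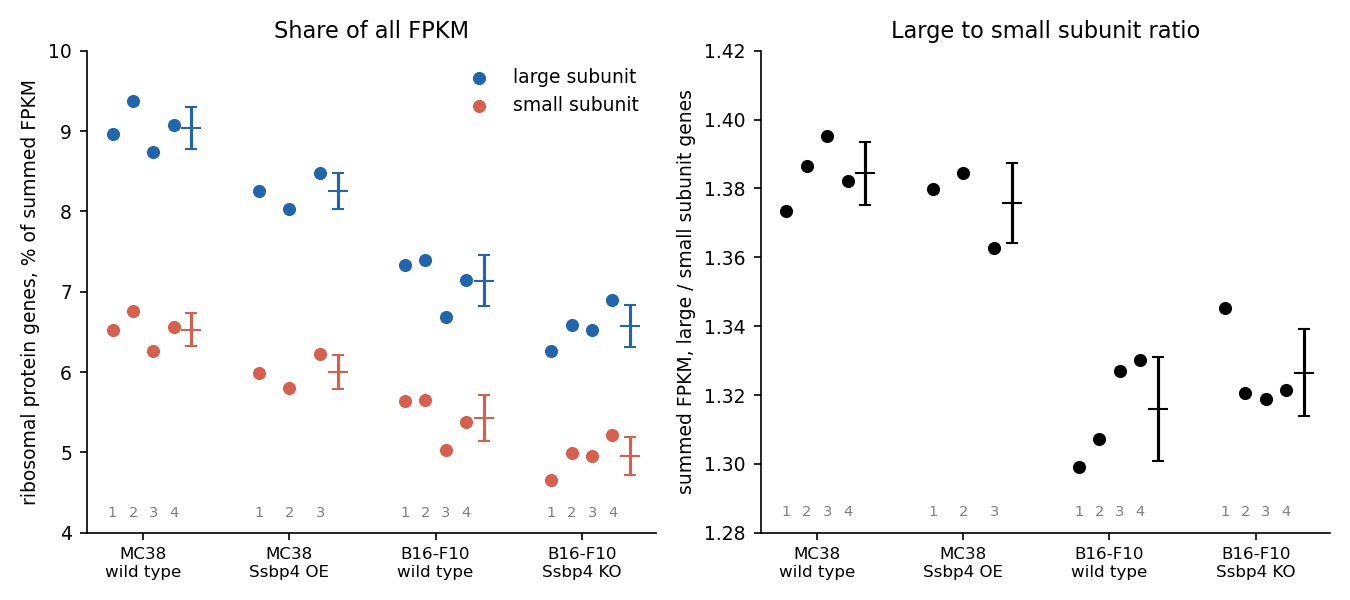
Left, share of the summed FPKM held by the 46 large and 30 small subunit genes in each library; right, the ratio of the large to the small subunit sum (axis does not start at 0). Points are libraries, in order of the replicate numbers printed under them, and the bars are the mean and SD; the MC38 OE shares lie below all wild-type shares of the same subunit, whereas the ratio overlaps between groups in both lines.

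The sums of the subunits differed from wild type by amounts close to each other. In MC38 the large subunit sum fell by 10.3% and the small subunit sum fell by 9.73%; in B16-F10 the sums differed from wild type by -9.10% and -9.83%. The ratio of the large to the small sum was 1.38 ± 0.0092 (SD, n = 4) in MC38 wild type and 1.38 ± 0.012 (SD, n = 3) in OE, and 1.32 ± 0.015 (SD, n = 4) in B16-F10 wild type and 1.33 ± 0.013 (SD, n = 4) in KO. The difference of these ratios was within the spread between libraries in both lines.

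Gene by gene, 48 of the 76 fell in MC38 OE and 2 rose at an adjusted p under 0.05, and 26 did neither. Of all 10748 genes tested in MC38, 23.6% were called lower and 23.9% higher. Among the 706 other genes at 100 FPKM or more, 270 were called lower (38.2%) and 169 higher. By subunit, 31 of 46 large subunit genes fell and 2 rose, and 17 of 30 small subunit genes fell and 0 rose. At an unadjusted p under 0.05 by limma, 35 large and 19 small subunit genes were lower, and 2 and 0 were higher. The median log2 fold change was -0.15 for both the large and the small subunit genes, beside -0.01 for all genes tested. Below 0 were 40 of the large and 29 of the small subunit genes, against 51.7% of all genes. In 45 of the 76 the OE libraries lay wholly below the wild-type libraries, which was so for 25.1% of all genes. The changes of mean FPKM were small, with a median of -9.81% and a range from -25.6% to 16.3%. With any 1 library left out, 34 to 51 of the genes were called lower, and 34 of the 50 called in either direction were called in all 7 of these fits.

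**Figure D2:**
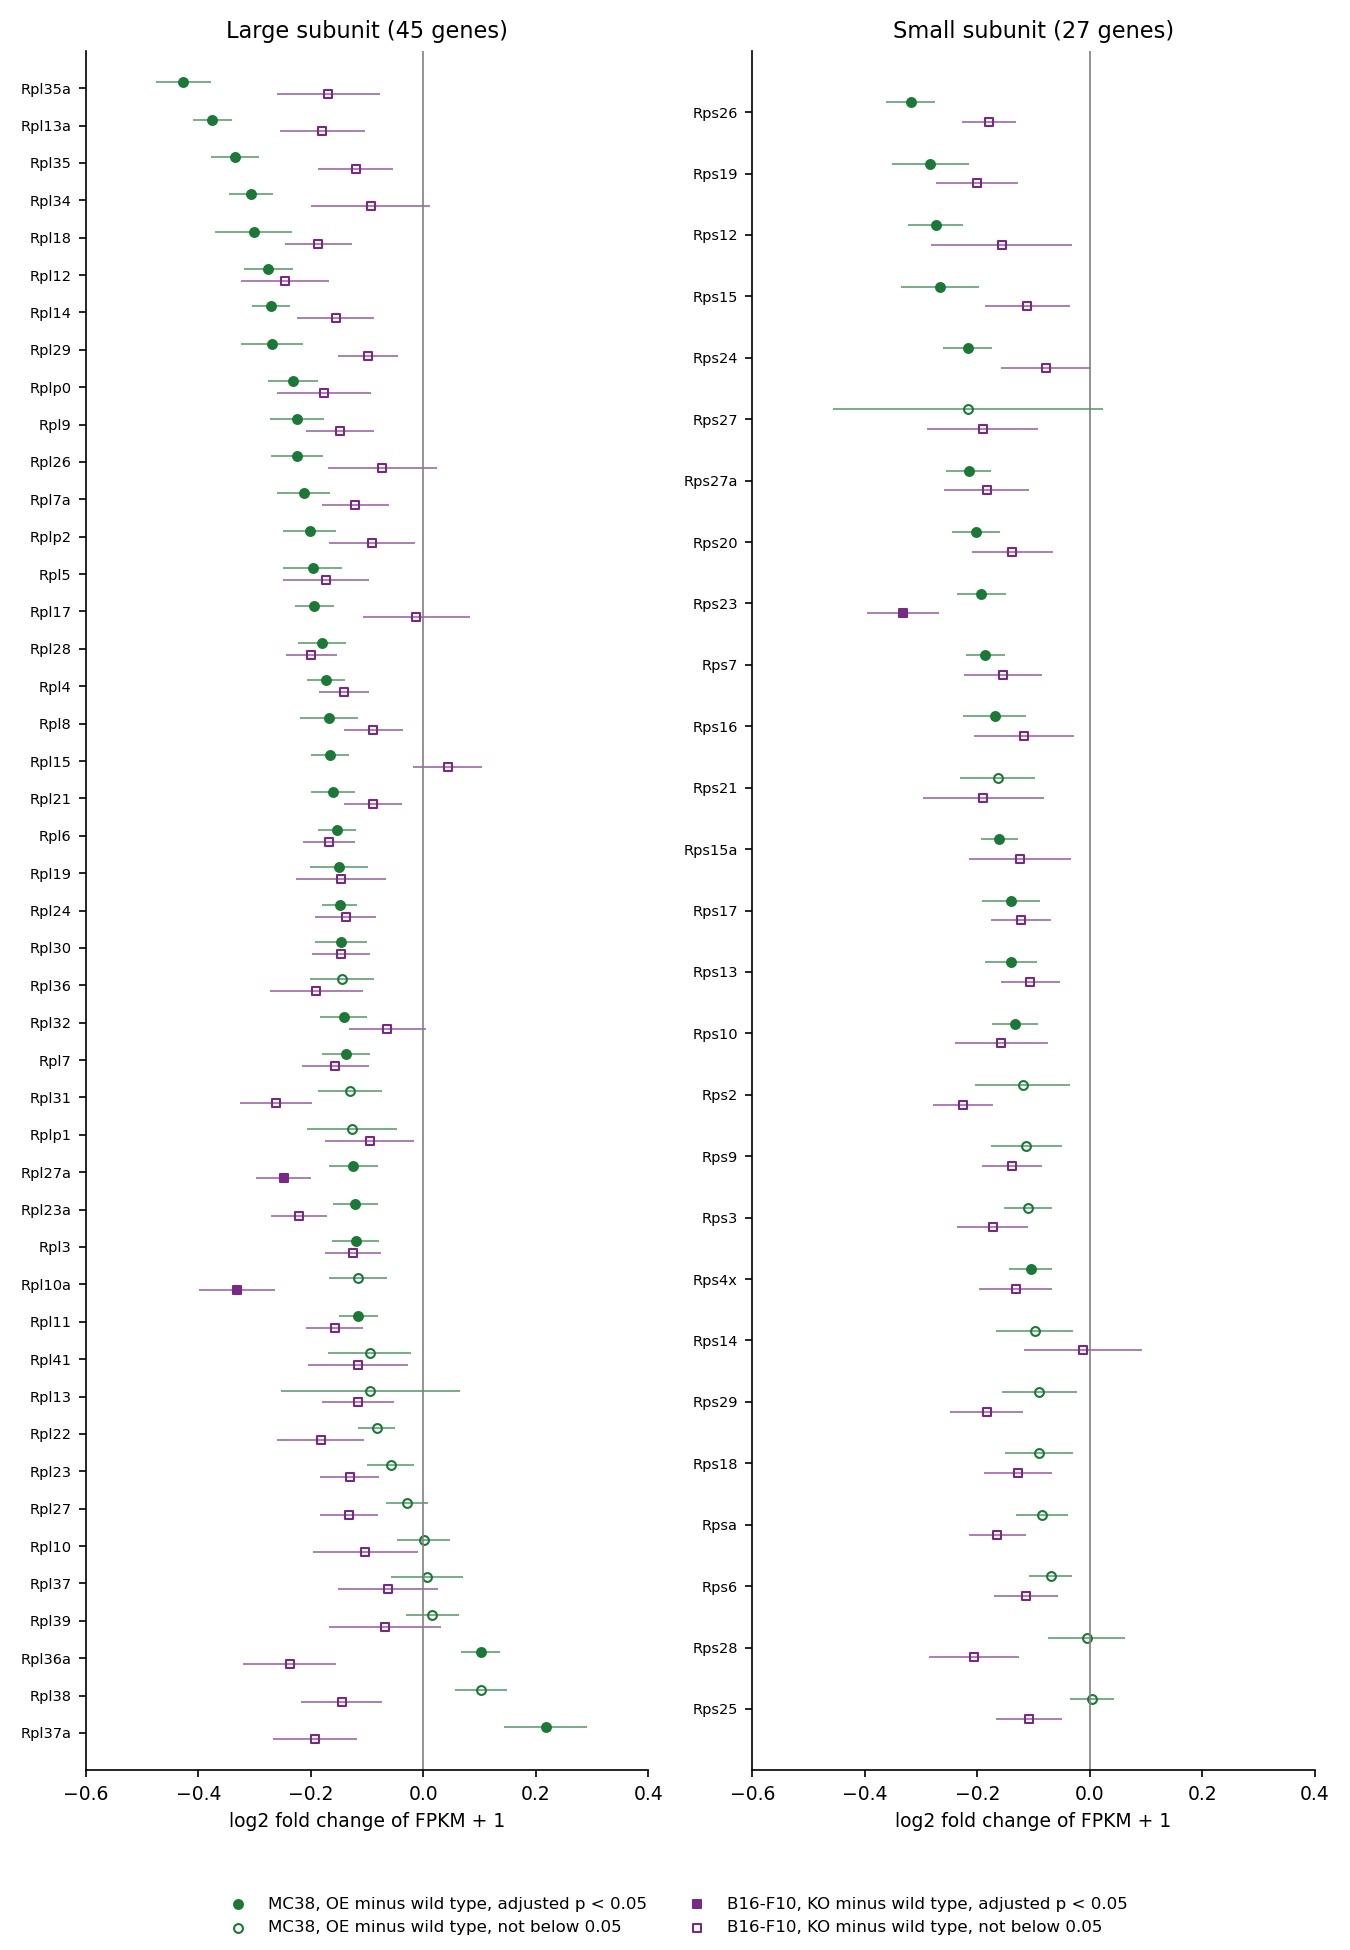
Log2 fold change of FPKM + 1 with its standard error for 45 large (left) and 27 small (right) subunit genes, 4 of the 76 not being drawn, ordered by the MC38 change; circles are MC38 OE against wild type (4 and 3 libraries) and squares B16-F10 KO against wild type (4 and 4). Filled symbols have an adjusted p under 0.05: 47 of the 72 drawn in MC38 and 3 in B16-F10.

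The lowest genes in MC38 OE were of the large subunit. Rpl35a, a protein whose human counterpart is mutated in Diamond-Blackfan anaemia, was at 1229, 1131, 1122 and 1123 FPKM in wild type and at 833, 827 and 910 FPKM in OE. The groups were far apart, and the log2 fold change was -0.43 (SE 0.048, adjusted p = 5.61e-05). Rpl13a, which is also known for restraining translation of inflammatory mRNAs after release from the ribosome, was at 695, 701, 671 and 698 FPKM in wild type and at 523, 525 and 551 FPKM in OE. Its fold change was -0.38 (SE 0.034, adjusted p = 1.35e-05), the smallest adjusted p of the 76. Rpl35, which lies at the rim of the exit tunnel through which the new chain leaves, was at 846, 828, 769 and 861 FPKM in wild type and at 650, 664 and 650 FPKM in OE (-0.33, adjusted p = 0.000125). No library of these 3 genes crossed into the other group. Rpl35a and Rpl35 lie on chromosomes 16 and 2, whose other genes had a median log2 fold change of -0.12 and -0.10 in MC38; with each chromosome centred on its other genes they were at -0.31 and -0.24 and still called, and Rpl13a, on chromosome 7, was at -0.36.

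Among small subunit genes, Rps26, which lies at the mRNA exit channel, was lowest, at 850, 940, 946 and 925 FPKM in wild type and 748, 736 and 716 FPKM in OE (-0.32, SE 0.044, adjusted p = 0.000203). Rps19, the gene most often mutated in Diamond-Blackfan anaemia in humans, was at 510, 595, 502 and 562 FPKM in wild type and 446, 410 and 480 FPKM in OE (-0.28, adjusted p = 0.00659). Rps12 followed, at 1963, 1969, 1817 and 1964 FPKM in wild type and 1561, 1525 and 1700 FPKM in OE (-0.27, adjusted p = 0.00121). All 3 had groups that did not overlap, with wild-type replicate 3 the lowest wild-type library for Rps19 and Rps12. Rps26 and Rps12 lie on chromosome 10, whose other genes had a median of -0.11, and with centring they were at -0.22 and -0.17 and still called.

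The exceptions were of the large subunit. Rpl37a, a zinc-binding protein, was at 536, 625, 517 and 599 FPKM in MC38 wild type and at 634, 625 and 726 FPKM in OE. The highest wild-type and the lowest OE library were level, and the fold change of 0.22 (SE 0.074, adjusted p = 0.0332) was called in 4 of the 7 fits that left out 1 library. The call was lost without wild-type replicate 1 or 3 and without OE replicate 3, where the fold change was lowest (0.15, adjusted p = 0.135); with centring by chromosome it was 0.18 and not called. Rpl36a, an X-linked gene, was at 384, 386, 394 and 398 FPKM in wild type and at 411, 410 and 437 FPKM in OE, with no overlap. Its fold change of 0.10 (adjusted p = 0.0331) was called in 2 of the 7 fits that left out 1 library, and it turned to -0.003 when each chromosome was centred on its other genes, as described below. Rpl38, known in the mouse for selective translation of Hox mRNAs, had the same size of change but was not called (0.10, adjusted p = 0.0928). Of the small subunit, Rps25 was the only gene above 0, by 0.004, and Rps28 was next (-0.01, adjusted p = 0.954).

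**Figure D3:**
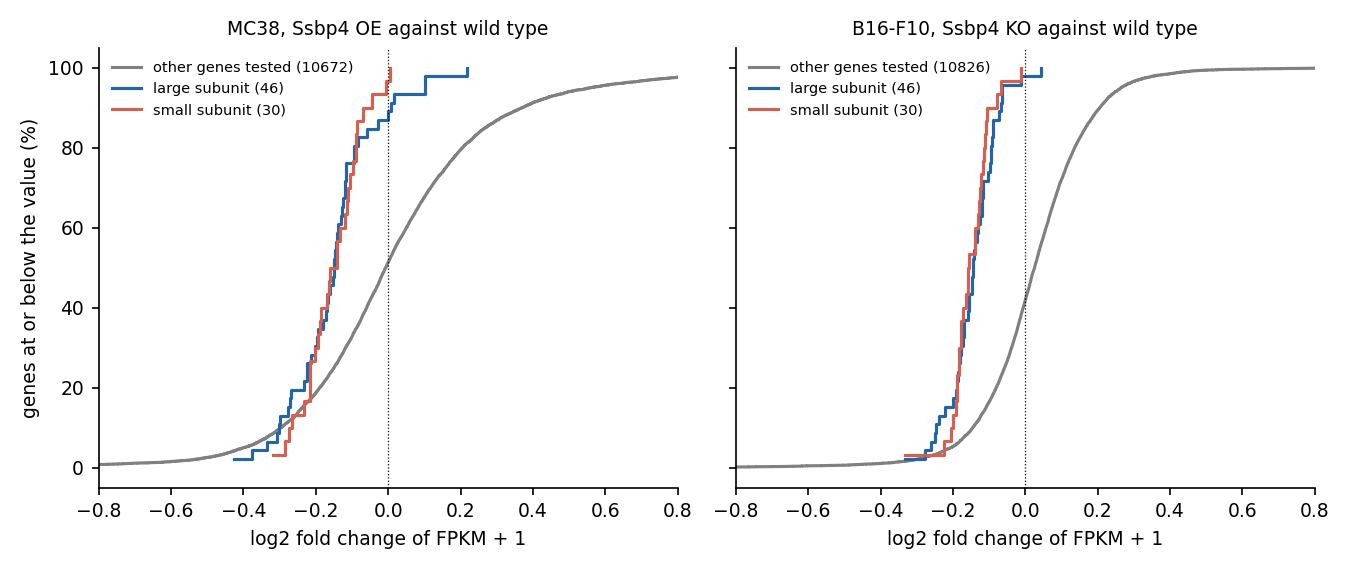
Cumulative share of genes by log2 fold change for the large subunit genes, the small subunit genes and all other genes tested, in MC38 (left) and B16-F10 (right). The curves of both subunits lie together around -0.15 in both lines, while the other genes centre on -0.01 in MC38 and 0.03 in B16-F10; the horizontal axis is drawn from -0.8 to 0.8.

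Arranged by position in the ribosome, genes that fell in MC38 were found in every group. Of the stalk and its base, Rplp0, Rplp2 and Rpl12 fell (-0.23, -0.20 and -0.28) and Rplp1 was at -0.13 (adjusted p = 0.224). Both proteins that carry 5S rRNA and, outside the ribosome, bind the p53 regulator MDM2 fell: Rpl5 by 0.20 and Rpl11 by 0.12 on the log2 scale, the latter lost in 3 of 7 fits that left out 1 library. Of 3 genes near the peptidyl transferase centre 2 fell, and Rpl10, which is needed for the last step of large subunit maturation, was level at 0.0006 (adjusted p = 0.993). Of 9 genes of the exit tunnel and its rim, 6 fell, led by Rpl35 and Rpl26 (-0.22). In the small subunit, 9 of 14 genes of the head fell, with Rps19 and Rps12 lowest, and 8 of 17 of the body and platform, a list that also holds Rps3a1, with Rps26 lowest. These shares, from 47.1% to 100%, all stood above the 23.6% of all genes tested, on groups of 2 to 17.

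In B16-F10 KO 3 of the 76 fell at an adjusted p under 0.05, none rose, and 73 did neither, where 0.899% of all 10902 genes tested were called lower and 2.23% in either direction. Without adjustment 38 had a p under 0.05 and were lower, against 8.03% of all genes, and none was higher. The log2 fold change was below 0 in 75 of the 76, against 42.3% of all genes, and the median was -0.15 for large and -0.16 for small subunit genes, beside 0.02 for all genes tested. KO libraries lay wholly below wild-type libraries in 27 genes, against 5.32% of all genes, and wholly above them in 0, against 8.53%. By subunit, 2 of 46 large and 1 of 30 small subunit genes were called. With any 1 library left out the number called ran from 0 to 4: it was 4 without KO replicate 4, 1 without wild-type replicate 3, and 0 without any of the other libraries.

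Rps23, which lies at the decoding centre of the small subunit, was at 379, 391, 363 and 418 FPKM in B16-F10 wild type and at 288, 303, 302 and 337 FPKM in KO. No KO library reached the lowest wild-type library, and the log2 fold change was -0.33 (SE 0.064, adjusted p = 0.0413). Rpl27a was at 297, 308, 319 and 316 FPKM in wild type and at 246, 268, 259 and 271 FPKM in KO (-0.25, SE 0.049, adjusted p = 0.0435). Rpl10a, a protein of the mobile L1 stalk, was at 538, 559, 458 and 491 FPKM in wild type and 414, 406, 386 and 414 FPKM in KO (-0.33, SE 0.067, adjusted p = 0.0463). The groups of the 3 genes did not overlap, and the 2 lowest wild-type values of Rpl10a were those of replicates 3 and 4. Among the next by adjusted p were Rpl23a (-0.22, adjusted p = 0.055), Rpl28 (-0.20, adjusted p = 0.0572), Rps2 (-0.23, adjusted p = 0.06), Rpl31 (-0.26, adjusted p = 0.0625) and Rps26 (-0.18, adjusted p = 0.0787), these 5 with groups that did not overlap; they are named after their values were seen.

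The size of the B16-F10 difference depended on the wild-type pair. Against wild-type replicates 1 and 2 all 76 genes were below 0 (43.7% of all genes were) with a median of -0.19, and 30 were called lower (16 large and 14 small), which was 39.5% of them against 5.17% of all genes. Against replicates 3 and 4 the median was -0.10, 63 were below 0 (45.6% of all genes were), and 10 were called lower (7 large and 3 small), 13.2% against a background of 10.2%. The share called in the second comparison was thus close to that of all genes. No gene of the 76 was called higher in either. Rps23 was at -0.32 and -0.34 against the pairs, Rpl27a at -0.21 and -0.28, and Rpl10a at -0.44 and -0.23, each with an adjusted p from 0.003 to 0.033. The comparisons share the KO libraries and are not independent.

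**Figure D4:**
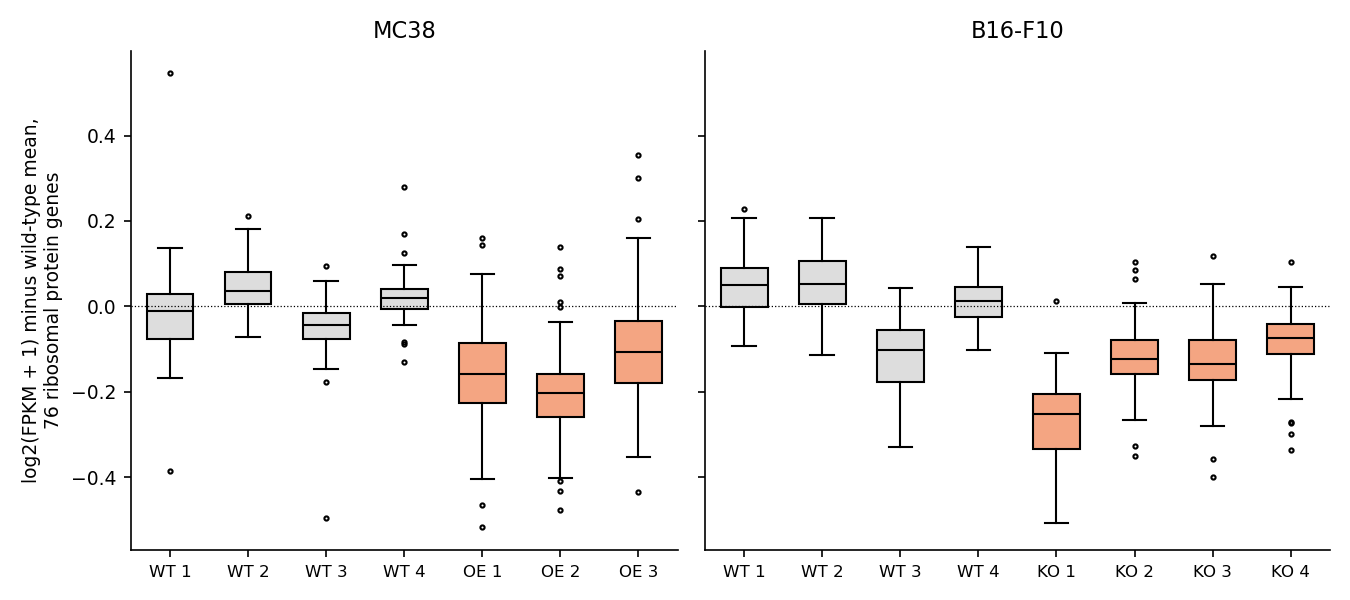
Deviation of log2(FPKM + 1) of the 76 ribosomal protein genes from the wild-type mean of their line, in each library; boxes are quartiles with the median, whiskers reach 1.5 times the box, points are genes beyond it, grey is wild type and orange OE or KO. The MC38 medians are -0.16, -0.20 and -0.11 in OE and between -0.04 and 0.04 in wild type; in B16-F10 wild-type replicate 3 (-0.10) lies among the KO libraries (-0.25 to -0.07).

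Library by library, the medians of the 76 deviations from the wild-type mean show the same. In MC38 they were -0.01, 0.04, -0.04 and 0.02 in wild type and -0.16, -0.20 and -0.11 in OE. In B16-F10 they were 0.05, 0.05, -0.10 and 0.01 in wild type and -0.25, -0.12, -0.13 and -0.07 in KO. The median of the other genes stayed within 0.01 of 0 in MC38 and between -0.002 and 0.031 in B16-F10. In KO replicate 1, 75 of the 76 genes lay below the wild-type mean, and in wild-type replicate 3, 70 did. Rpl15, a large subunit gene on chromosome 14, had 560, 561, 480 and 537 FPKM in wild type and 538, 573, 553 and 535 FPKM in KO (0.04, adjusted p = 0.732), with overlapping groups.

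Set side by side, Rps23 and Rpl27a were called lower in both lines, among 48 called lower in MC38 and 3 in B16-F10. Below 0 were 69 of the 76 genes in MC38, 75 in B16-F10 and 68 in both, where 51.7% and 42.3% of all genes were below 0 in each line. The shares of all genes called lower in both lines and below 0 in both were not counted. A large overlap follows from the counts within each line and does not measure likeness between the lines. With 1 library left out, Rps23 was called in 7 of 7 fits in MC38 and 1 of 8 in B16-F10, and Rpl27a in 3 of 7 and 1 of 8. Across the 76 the log2 fold changes of the lines had a Pearson correlation of 0.038 and a Spearman correlation of 0.057, given as a description since genes of a library are not independent. Rpl37a, Rpl36a and Rpl38, the highest in MC38 (0.22, 0.10 and 0.10), were at -0.19, -0.24 and -0.14 in B16-F10. Rpl35a and Rpl13a, the lowest in MC38, were at -0.17 and -0.18 there (adjusted p = 0.328 and 0.214). The lines differ in the direction of the Ssbp4 change, in tissue, vector and control, and their difference was not tested.

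Some of these values differed once each chromosome was centred. In B16-F10 the other genes of chromosomes 14 and 18 had a median log2 fold change of 0.16 and 0.12, beside 0.03 for all other genes, and this was so against either wild-type pair (0.15 and 0.16 for chromosome 14). The ribosomal protein genes there were among the highest of the 76: Rpl15 (0.04) and Rps24 (-0.08) on chromosome 14, Rpl17 and Rps14 (both -0.01) on chromosome 18. After each chromosome was centred in every library on its other genes, Rpl15 was at -0.10 and all 76 genes were below 0. The median of all genes tested was then 0.001, and the share of all genes below 0 was not counted. Of the 76, 4 were called lower, against 0.853% of all genes, and 2 of the 4 were among the 3 called without centring. In MC38, beside chromosomes 2, 10 and 16 given above, the other genes of chromosome X had a median of 0.11, and the 4 X-linked ribosomal protein genes (Rpl39, Rpl10, Rps4x and Rpl36a) had a median of 0.01. With centring, 43 of the 76 were called lower in MC38 and none higher. In that fit 23.1% of all genes tested were called lower, and 2497 of 10748 were called higher. Centring was chosen after the data were seen.

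The mouse genome holds many processed copies of these genes, and 62 of the 76 had at least 1 named copy in the tables, whose reads the authors' counting may have split with the parent gene. The named pseudogene entries summed to 3.65% to 4.03% of the summed FPKM of the 76 genes in MC38 wild type, and to 3.71% to 4.00% in OE. Copies added up to over 5% of parent and copies for 11 genes in MC38 and 5 in B16-F10. With the copies added, the median log2 fold change of the 76 was -0.15 in both lines, as without them.

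Of the parents whose values may be uncertain for this reason, 4 are described, chosen after their values were seen. Others also had large copy shares. Copies held 30.5% of the sum for Rps16 in MC38 and 24.9% in B16-F10, and 9.24% and 28.5% for Rpl28. Rpl10 was at 357 ± 20.04 FPKM (SD, n = 4) in MC38 wild type, while the entry Rpl10-ps3 stood at 1681 ± 49.9 FPKM (SD, n = 4), so that 82.5% of the sum lay in the copy. Rps27 varied widely in MC38, at 555, 402, 269 and 347 FPKM in wild type and 265, 281 and 468 FPKM in OE (-0.22, SE 0.24, adjusted p = 0.488). Its retrocopy Rps27rt ran the opposite way, at 244, 413, 500 and 411 FPKM in wild type and 518, 393 and 311 FPKM in OE, and the sum of both was 798, 815, 769 and 758 FPKM and 783, 674 and 779 FPKM. The coefficient of variation over wild-type libraries was 30.7% for Rps27 and 3.34% for the sum. In B16-F10, Rps27rt took 2.96% ± 1.2 (SD, n = 4) of the sum in wild type.

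Rps23 and its copy Rps23-ps1 were lower together: the copy was at 319 ± 22.9 (SD, n = 4) and 235 ± 10.8 FPKM (SD, n = 3) in MC38 wild type and OE (-0.44, adjusted p = 0.000119), and at 380 ± 19.7 and 309 ± 30.2 FPKM (SD, n = 4 each) in B16-F10 wild type and KO (-0.30, adjusted p = 0.0682). The sum of parent and copies was lower by 0.32 on the log2 scale in B16-F10. For Rpl10a the copy Rpl10a-ps1 did not follow the parent in B16-F10 KO (0.09, adjusted p = 0.713), and the sum was at -0.20 where the parent was at -0.33. In MC38 OE the same copy was at -0.71 (adjusted p = 0.000257) and the parent at -0.12 (adjusted p = 0.0891).

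**Figure D5:**
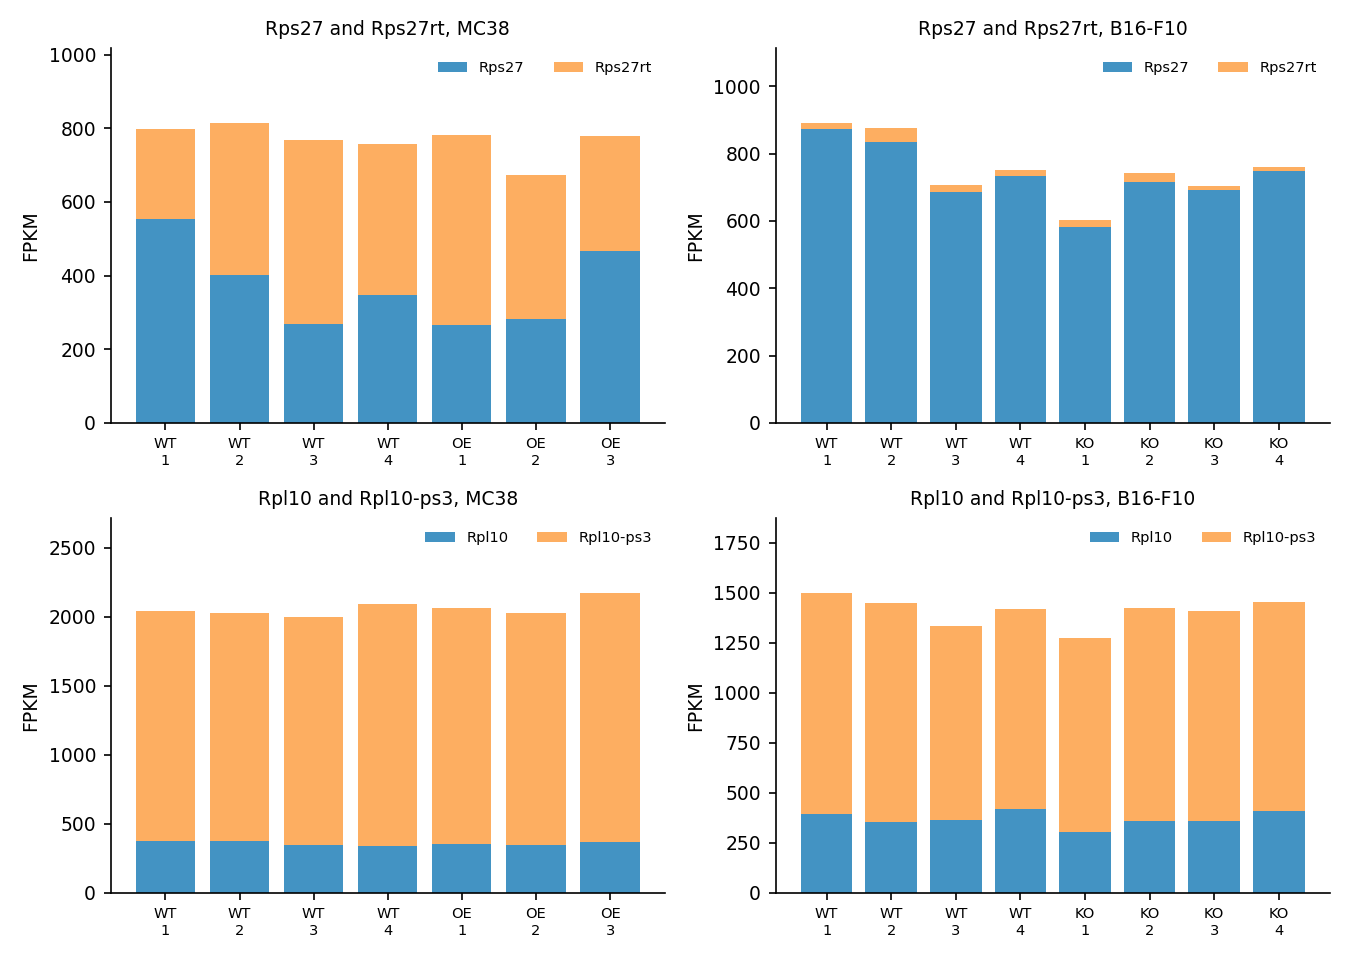
FPKM of Rps27 and its retrocopy Rps27rt (top) and of Rpl10 and Rpl10-ps3 (bottom), stacked, in each library of MC38 (left) and B16-F10 (right). In MC38 the split between Rps27 and Rps27rt varies from library to library (30.5% to 66.2% in the copy) while their sum stays between 674 and 815 FPKM, and Rpl10-ps3 holds most of its sum in both lines.

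The 23 genes with a tract of at least 8 bases had a median log2 fold change of -0.20 in MC38 and the 33 others with a promoter entry a median of -0.12. In B16-F10 the medians were -0.14 with and -0.16 without it. At a length of at least 5 bases (34 genes with and 22 without) they were -0.17 and -0.11 in MC38, and -0.16 and -0.13 in B16-F10, where the order was thus the opposite of that at 8 bases. These are descriptions over genes of the same libraries, and the difference was not tested. Of the windows printed above, Rpl35a, Rpl13a and Rpl35 have tracts of 13, 14 and 18 bases and Rpl37a has none. But Rpl15, with 17 bases, was at -0.17 in MC38, close to the middle of the 76. Rpl27a, with the longest tract printed (20 bases), was at -0.12 there.

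Of the ribosomal proteins outside the naming rule, Fau, which encodes one fused to a ubiquitin-like protein, fell by 0.22 on the log2 scale in MC38, a call lost in 4 of 7 fits that left out 1 library, and Rack1, a signalling scaffold on the small subunit, fell by 0.21. Rps3a1 was at -0.06 (adjusted p = 0.232). In B16-F10 these were below 0 and not called, with Rps3a1 lowest (-0.23, adjusted p = 0.0581). Of 10 paralogs listed, 5 were tested. Rpl36al and Rpl22l1 fell in MC38 (-0.19 and -0.12, the latter not called in 2 of 7 left-out fits), Rps27l, a p53 target, and Rpl7l1 were at -0.04 and 0.03 and not called, and the paralog Rps27rt is given above. None of the 5 was called in B16-F10. Rpl39l, Rpl3l, Rpl10l and Rps4l were at or near 0 in both lines.

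Of 6 genes listed as chaperones of ribosomal proteins, 5 fell in MC38 OE, against 23.6% of all genes. Pdcd2l was lowest (-0.34, adjusted p = 0.0086) and Pdcd2, the chaperone of Rps2, next (-0.25). Tsr2 (-0.21, partner of Rps26), Bccip (-0.18) and Heatr3 (-0.10) followed. With 1 library left out, the Heatr3 call was lost in 6 of 7 fits (adjusted p up to 0.158), and that of Tsr2 in 2, without OE replicate 2 or 3. Grwd1, the chaperone of Rpl3, was at -0.16 (adjusted p = 0.0853). None of the 6 was called in B16-F10, where their median was 0.01.

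Other mRNAs with a known TOP start were split. Of 21 listed, among them Fau and Rack1, 14 fell and 3 rose in MC38 OE, against 23.6% and 23.9% of all genes, with a median of -0.11. The lowest were Nap1l1, a histone chaperone, and Eef2, the elongation factor that moves the ribosome along the mRNA (both -0.32, adjusted p = 0.000148 and 0.00028). Those that rose were Eif3h (0.24), Eif3e (0.20) and Tpt1 (0.15); the first and second encode subunits of an initiation factor. Eef1a1, the most abundant, was level at 5528 ± 153 (SD, n = 4) and 5488 FPKM. In B16-F10 none of the 21 was called at an adjusted p under 0.05, 7 were lower at an unadjusted p under 0.05 by limma (8.03% of all genes were), and the median was -0.10.

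Transcripts that host small nucleolar RNAs and also begin with a TOP tract had the lowest median of these gene lists. In MC38 OE 7 of 8 fell, against 23.6% of all genes, with a median of -0.46. Gas5 was at 633 FPKM in wild type (622 to 644) and at 449 FPKM in OE (438 to 455), a fold change of -0.49 (SE 0.032, adjusted p = 1.17e-06). Snhg8 and Snhg5 were lowest (both -0.64), and Eif4a2, the protein-coding host on the list, was at -0.05 and not called. In B16-F10 none was called, 6 were lower at an unadjusted p under 0.05 by limma (8.03% of all genes were), and the median was -0.36. Gas5 there was at 234 to 288 FPKM in wild type and 163 to 219 FPKM in KO (-0.41, adjusted p = 0.0645), with no overlap.

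Of 16 genes that control TOP mRNAs and S6 kinase, 5 fell and 3 rose in MC38 OE, shares of the list near the 23.6% and 23.9% of all genes. Myc, a transcription factor that raises ribosome production, was at 163 to 191 FPKM in wild type and at 91.2 to 96.6 FPKM in OE (-0.94, adjusted p = 5.07e-07). Larp1, which binds the TOP tract, fell by 0.31 on the log2 scale. Rptor, the mTORC1 subunit that binds its substrates, rose by 0.36, and Tsc1, part of the complex that holds mTORC1 back, rose by 0.30. In B16-F10 none of the 16 was called, 2 were lower and 1 higher at an unadjusted p under 0.05 by limma (8.03% and 13.3% of all genes were), and Myc was at 29.2 FPKM in wild type and 29.5 FPKM in KO. The part of Myc and Larp1 in the ribosomal protein values was not tested.

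By median annotated transcript length, 62 of the 76 genes are under 1000 bases. In MC38, 266 other genes with transcripts under 1000 bases and at least 100 FPKM had a median log2 fold change of -0.08. The 428 longer ones at least as abundant had a median of -0.04, beside -0.15 for the 76. Called lower were 111 of the 266 (41.7%) and 158 of the 428 (36.9%), beside 63.2% of the 76. In B16-F10 the 261 short and abundant genes had a median of 0.01 and 434 longer ones a median of -0.02. The 62 ribosomal protein genes under 1000 bases had medians of -0.15 and -0.14 in the lines. These are descriptions, without a test.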

How the data were processed

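RNA-seq libraries of MC38 (4 wild type, 3 OE) and B16-F10 (4 wild type, 4 KO) were analysed from the authors' deposited tables of FPKM per gene, 1 table for each line. Per the submitters' processing notes the build was GRCm39 and DESeq2 was used; aligner, counting tool and gene annotation: not given in the sources used here. FPKM are not counts and the tables were normalized separately, so each line was tested on its own with limma 3.58.1 in R 4.3.3 (linear model, trended empirical Bayes, two-sided) on log2(FPKM + 1). Genes with a mean of at least 1 FPKM in the line were tested, Benjamini-Hochberg adjustment ran over all of them, and a call is an adjusted p under 0.05. A log2 fold change is on the log2(FPKM + 1) scale and understates that of low genes. Ssbp4 was tested by an exact permutation over libraries (scipy 1.17.1). Depth was read from FPKM spacing on genes with 1 annotated transcript, where 78.3% to 83.5% of low values fell within 0.1 of a whole fragment; this was too few to recover counts, and no count test was run. Replicate pairs differed by a chi-square of 5.93 to 31.9 per degree of freedom against sampling noise, so none was counted as 1. The members and lists were chosen with earlier results of these data known. Genes were named by a rule: the 3 lowest and 3 highest members per line and subunit, the most and least abundant, those called in both lines, all stalk and 5S genes, the paralogs, chaperones and proteins outside the naming rule, and the 2 highest and lowest called genes of the other lists; Rpl26, Gas5, Eif4a2, Eef1a1, Tpt1 and the copies were named after their values were seen, as were others where stated. Some genes are not reported here. Promoters came from RefSeq (GRCm38.p6). The same fit was tested on simulated data. There a true log2 change of 0.15 was called in 10% of the changed genes with the MC38 spread and in 2% with the B16-F10 spread. A change of 0.3 was called in 76% and 46%. Only a small part of the genes was changed there, whereas 47.5% of all genes tested were called in MC38. The adjusted cut was therefore stricter in the simulation than in the MC38 fit, and the MC38 shares do not hold for that fit. A gene that was not called is still not shown to be unchanged. Alternatives changed the pseudocount, filter, scaling, variance model, library weights, replicate block and left-out libraries. Centring by chromosome and fits against each wild-type pair were added after the data were seen.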

Additional observations from a re-analysis of the deposited data

Results flagged for a closer look

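Among 125 groups of 4 libraries examined for the named genes, 7 had 1 library far from the other 3 (most of the group's range was the gap to its nearest neighbour); chance does this in about 1 of 20 groups. In MC38 wild type, replicate 1 stood alone for Ssbp4 at 13.2 FPKM (others 17.0 to 17.6), for Rpl35a at 1229 FPKM (others 1122 to 1131) and for Myc at 163 FPKM (others 186 to 191). Replicate 3 of that group stood alone for Rps12 at 1817 FPKM (others 1963 to 1969). In B16-F10, wild-type replicate 3 stood alone for Rpl12 at 41.7 FPKM (others 49.1 to 50.4). KO replicate 1 stood alone for Rps16 at 391 FPKM (others 495 to 513) and for Rps27l at 270.1 FPKM (others 315 to 324). Rpl35a and Rps12 were called lower in MC38 OE in every fit that left out 1 library. OE groups hold 3 libraries and were not examined.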

How the results depend on the processing

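In MC38 the count of ribosomal protein genes called lower (48) stayed within 33 to 49 under every alternative on filter, scaling and variance and under centring by chromosome, and ran from 34 to 51 with 1 library left out. The count called higher (2) was 3 with a common total, 0 with no filter and 0 with centring, and 0 to 2 with 1 library left out. In B16-F10 the count called lower (3) was 1 with a filter of 0.1 FPKM, 0 with no filter, 5 with median-of-ratios scaling, 12 with library weights, 4 with centring, 30 and 10 against wild-type replicates 1 and 2 and replicates 3 and 4, and 0 to 4 with 1 library left out. All B16-F10 genes called (243) became 140, 73, 776 with library weights, 146 with centring, 1349 and 2805 against the pairs, and 23 to 414 with 1 left out. The share of B16-F10 calls that were higher was 59.7%, and 73.1% with a common total, 40.2% with median of ratios and 36.3% with centring. Except for fewer libraries and other filters by construction, the cause was not tested.

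The deviations did not show a consistent pairing of the libraries by replicate number, though so few libraries per group cannot exclude one. Same-numbered deviations correlated at -0.29, -0.07 and -0.07 in MC38 and at -0.11, -0.18, 0.17 and -0.30 in B16-F10. Not every library correlated best with its own number. With the replicate block, which drops the unpaired MC38 wild-type replicate 4, 19 genes were called lower and 0 higher in MC38, and 0 of the 76 and 12 of all genes in B16-F10; Rps28 was at 0.0068 and Rps25 at -0.0039 in MC38.

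Some log2 fold changes changed sign, and the cause was not tested. Not all of them were near 0: in the main B16-F10 fit Rps12 was at -0.16 and Rplp1 at -0.09. In MC38, Rpl36a was -0.0033 with centring; Rps28 was 0.021 with a common total, 0.00079 with median of ratios, 0.0085 with centring and -0.064 to 0.048 with 1 left out; Rps25 was -0.033 with centring and -0.033 to 0.024 with 1 left out; and Rps27rt was -0.14 to 0.25 with 1 left out. In B16-F10 against wild-type replicates 3 and 4, Rpl37 was 0.074, Rpl17 0.078, Rps24 0.012, Rps14 0.13, Rplp1 0.022, Rps12 0.041, Tsr2 -0.0076, Pdcd2 0.054 and Pdcd2l -0.0011. Against replicates 1 and 2, Rpl15 was -0.028, Rpl7l1 -0.011 and Bccip -0.089. With a common total, Rpl17 was 0.0056, Rps14 0.0059 and Pdcd2 0.014; with library weights, Rpl17 was 0.016 and Bccip -0.0061; with median of ratios, Rpl7l1 was -0.021; with centring, Rpl15 was -0.10 and Bccip -0.015. With 1 left out, Rpl17 ran from -0.083 to 0.066, Rpl15 from -0.0075 to 0.067, Rps14 from -0.12 to 0.057, Rpl36al from -0.063 to 0.0013, Rpl7l1 from -0.0074 to 0.018, Pdcd2 from -0.033 to 0.021 and Bccip from -0.015 to 0.076. Beyond these, calls of named genes were lost 37 times in MC38 (18 genes) and 10 times in B16-F10 (4 genes), counting each gene in each fit. In the fits that left out 1 library, calls were lost 43 and 20 times (11 and 3 genes).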
